A study of Mus musculus with 32 samples.

Results

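The genes described here are the mouse GATA factors Gata1, Gata2 and Gata3 and their cofactor Zfpm1, which encodes FOG1. They were taken by symbol from 2 tables of gene expression, so they are 4 of 24475 genes in each table. With them were taken all peaks of 8 ChIP-seq peak lists whose gene name is one of the 4, which gave 105 of 215616 peaks. The samples come from a pair of established mouse lines. The first, Scid.adh.2c2, resembles early T cell precursors and was kept in serum medium with no added cytokine named. The second, ILC2/b6, is of the group 2 innate lymphoid cell type (ILC2) and its serum medium held the cytokines IL-33, IL-7 and IL-2, each at 10 ng/ml. For RNA-seq, cells of each line were transduced with a guide RNA against the transcription factor gene Bcl11b or with a control guide, each on a vector marked with CFP, and 2 libraries were made for each of these 4 groups. For ChIP-seq, Bcl11b, GATA3, Runx1 or Runx3 was precipitated from each line, with no guide named and 2 libraries per factor and line; the protocol gives fixation with DSG and then formaldehyde, and mixed antibodies for Bcl11b and GATA3. Input samples are labelled for each of 2 fixations, and which input served which factor is not stated. Each condition rests on 1 line, no label gives the origin of the replicates (separate cultures or not), and p-values therefore measure the spread between these libraries, which may be technical.

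GATA factors are zinc finger proteins that bind DNA at GATA sequences, and FOG1 binds their amino-terminal zinc finger rather than DNA and can recruit corepressor complexes. GATA1 is known for erythroid, megakaryocyte and mast cell development, GATA2 for blood stem cells, progenitors and mast cells, and GATA3 for T cells and for type 2 cells, both T helper 2 cells and ILC2. Bcl11b is a zinc finger factor that is switched on when T cell precursors commit to the T lineage and that is also expressed in ILC2.

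The 250 bases before the annotated start of Gata3, Zfpm1 and Gata1 are shown because peaks lay at the first 2 of these starts while Gata1 had none there. The sequences are RefSeq's, build GRCm38.p6, on the strand of each gene, with each CG dinucleotide in capitals. They cover chr2:9878601-9878850 (minus strand), chr8:122281891-122282140 (plus strand) and chrX:7967911-7968160 (minus strand).
Gata3: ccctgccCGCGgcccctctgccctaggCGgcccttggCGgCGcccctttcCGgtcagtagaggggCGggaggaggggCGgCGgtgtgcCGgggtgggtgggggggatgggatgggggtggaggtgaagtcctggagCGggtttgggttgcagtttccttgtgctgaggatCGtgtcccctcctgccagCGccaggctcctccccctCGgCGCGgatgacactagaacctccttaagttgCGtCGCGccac
Zfpm1: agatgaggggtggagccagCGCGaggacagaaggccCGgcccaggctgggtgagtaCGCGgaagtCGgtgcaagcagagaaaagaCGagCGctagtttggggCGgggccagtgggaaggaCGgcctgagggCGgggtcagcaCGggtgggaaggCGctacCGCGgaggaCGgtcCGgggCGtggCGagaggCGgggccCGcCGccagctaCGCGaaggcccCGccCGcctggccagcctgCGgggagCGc
Gata1: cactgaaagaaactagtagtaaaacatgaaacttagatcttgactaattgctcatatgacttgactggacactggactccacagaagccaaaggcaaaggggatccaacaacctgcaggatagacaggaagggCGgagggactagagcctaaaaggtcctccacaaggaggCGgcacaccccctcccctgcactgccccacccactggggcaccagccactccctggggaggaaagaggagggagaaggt
The Gata3 window held 19 CG dinucleotides at 70% G and C, the Zfpm1 window 28 at 73.2%, and the Gata1 window 2 at 54.0%, beside a median of 6 and 52.4% over 32851 promoter windows of the same length. Both strands were searched for a GATA motif, spelled AGATAA or else AGATAG or with a first T as TGATAA or else as TGATAG, and 26.5% of all windows held at least 1 of these. For a Runx motif, spelled TGTGGT or else TGCGGT, again on both strands, the share was 18.6%. No window of the 4 genes held a match of either kind, which says only that these letters are not in these bases. The peak coordinates below are on mm9, a different build, so no peak was placed on these letters.

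The recovered depth was 34.7 to 43.7 M (mega) reads in the 8 RNA libraries, whose values are RPKM, reads per kb of transcript per M reads. Bcl11b, the targeted gene, was at 46.998 and 49.528 RPKM in Scid.adh.2c2 with the control guide, and cells given the Bcl11b guide had 47.093 and 46.82 RPKM. In ILC2/b6 it was at 6.848 and 6.333 RPKM with the control guide and at 7.042 and 7.236 RPKM with the other. The change was -0.04 ± 0.04 (SE, log2) in Scid.adh.2c2 (limma adjusted p = 0.455) and 0.11 ± 0.06 in ILC2/b6 (limma adjusted p = 0.278). A guide acts on the DNA and its edits need not lower the transcript, and the labels are therefore not checked by this level. Of 8 pro-T markers, 7 passed the level filter in Scid.adh.2c2, among them Cd3e, a chain of the CD3 complex, at 172 to 174 RPKM in every library, while Ptcra, Rag1, Cd3e and Tcf7 were at most 0.256 RPKM in ILC2/b6. The list does not separate the lines as a whole. Of its genes, Il2ra, the IL-2 receptor alpha chain, read 907.195 to 947.229 RPKM in ILC2/b6, above the Scid.adh.2c2 controls at 150.315 and 168.421 RPKM, and Notch1 read 17.065 to 20.374 RPKM there. The pro-T sum in ILC2/b6 was 928.558 to 965.333 RPKM, most of it Il2ra. All 8 ILC2 markers passed the filter in ILC2/b6, among them Il1rl1, the IL-33 receptor, at 306 to 339 RPKM, but 5 of the 8 also passed it in Scid.adh.2c2. Il17rb, the IL-25 receptor, read 28.157 and 30.706 RPKM in the Scid.adh.2c2 controls against 14.209 and 15.235 RPKM in those of ILC2/b6. Rora likewise read 6.371 and 6.832 against 3.212 and 3.854 RPKM. The ILC2 markers in ILC2/b6 summed to 8121 and 8284 RPKM with the control guide and to 5675 and 5819 RPKM with the Bcl11b guide. Most of this sum was Il13 and Il5, so it does not stand for the list. Of the 8 markers 3 were called lower there (Il5, Il13 and Areg) and 1 higher (Klrg1), beside 6.21% and 8.32% of all genes tested in ILC2/b6. Il1rl1, Il17rb, Rora and Il9r were not called. In Scid.adh.2c2 the summed pro-T markers stood at 1014 and 1051 RPKM with the control guide and at 634 and 639 with the Bcl11b guide. Of the 7 tested, 5 were called lower (Ptcra, Rag1, Tcf7, Il2ra and Notch1), beside 22.7% of all genes tested in this line. Cd3g was called higher, beside 35.1%, from 136.401 and 129.887 RPKM to 157.875 and 161.2 RPKM. Cd3e was not called, so the sum does not stand for the list.

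Gata3 and Zfpm1 were the expressed members of the group, and their order between the lines was opposite. Gata3 was the highest of the 4 in both lines and stood 2.68-fold higher in ILC2/b6 than in Scid.adh.2c2 control libraries. Zfpm1 was 2.96-fold higher in Scid.adh.2c2. These 2 comparisons set tables side by side that were made separately, and they are descriptions. Per library, Gata3 was 2.16 to 2.32 times as high as Zfpm1 per kb of transcript in Scid.adh.2c2 and 16.81 to 19.04 times in ILC2/b6. Gata1 and Gata2 stayed below 1 RPKM in all 8 libraries.

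With the control guide, Gata3 read 53.951 and 56.994 RPKM in Scid.adh.2c2, and with the Bcl11b guide 63.12 and 66.218 RPKM. The group means were 55.5 ± 2.2 and 64.7 ± 2.2 RPKM (SD, n = 2). Both libraries with the Bcl11b guide lay above both controls. The fitted change was 0.22 ± 0.05 (SE) on the log2(RPKM + 0.5) scale, limma adjusted p = 0.00506 over 10221 genes. In that comparison 57.8% of genes were called, 35.1% as higher and 22.7% as lower, and the groups did not overlap for 80.0% (46.5% with the Bcl11b guide higher, 33.5% lower), so such a call is common. Centring each library on its median gene, which lowers all Scid.adh.2c2 changes by 0.13, left 0.09 (limma adjusted p = 0.142), and without the second Bcl11b guide library the change was 0.19 (limma adjusted p = 0.0671).

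In ILC2/b6, Gata3 read 146.431 and 150.695 RPKM with the control guide and 150.632 and 162.683 RPKM with the Bcl11b guide. The groups overlapped, since the first library with the Bcl11b guide read just below the second control. The change was 0.08 ± 0.04 (SE, log2), limma adjusted p = 0.309 over 10526 genes, of which 14.5% were called, 8.32% as higher and 6.21% as lower; the groups did not overlap for 59.9% (33.6% higher, 26.3% lower). The guide effect in ILC2/b6 minus that in Scid.adh.2c2 was -0.14 ± 0.07 (SE, log2), which missed the threshold (limma adjusted p = 0.121; 45.1% of 11609 genes were called, 18.0% as higher and 27.1% as lower).

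Zfpm1 rose in Scid.adh.2c2. It read 24.682 and 24.525 RPKM with the control guide and 28.725 and 30.599 RPKM with the Bcl11b guide, means of 24.6 ± 0.1 and 29.7 ± 1.3 RPKM (SD, n = 2), with no overlap. The change was 0.26 ± 0.05 (SE, log2), limma adjusted p = 0.00257, and it was 0.13 (limma adjusted p = 0.0657) after median centring and 0.15 (limma adjusted p = 0.0283) after quantile normalization. Such a call and such a lack of overlap are common in Scid.adh.2c2. There 57.8% of genes were called, 35.1% as higher, and the groups did not overlap for 80.0%, 46.5% with the Bcl11b guide higher. In ILC2/b6 Zfpm1 read 8.71 and 7.914 RPKM with the control guide and 8.601 and 9.116 RPKM with the Bcl11b guide, and the groups overlapped. Here the change was 0.09 ± 0.06 (SE, log2), limma adjusted p = 0.402. The difference between the lines was -0.18 ± 0.08 (SE, log2), limma adjusted p = 0.112, or -0.24 (limma adjusted p = 0.0452) without the second ILC2/b6 control library.

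**Figure D1:**
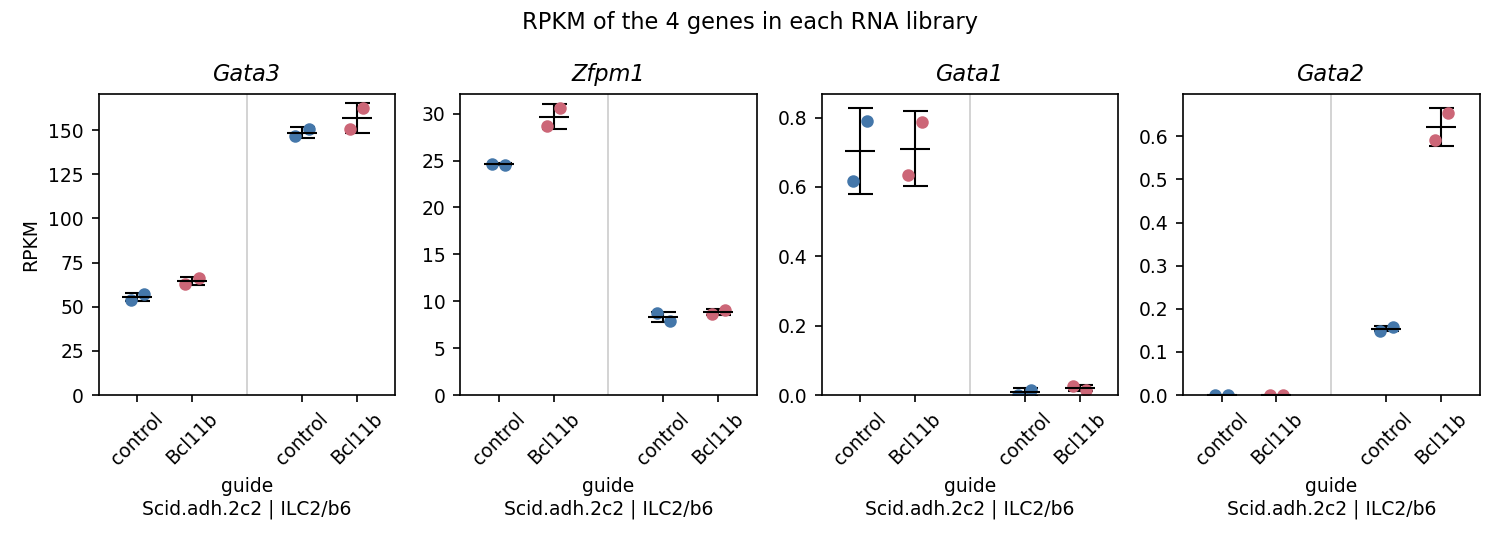
RPKM of Gata3, Zfpm1, Gata1 and Gata2 in each RNA library (points: 2 libraries per group; bars: mean ± SD; each panel has its own axis from 0). Gata3 stands higher in ILC2/b6 and Zfpm1 in Scid.adh.2c2, and Gata2 is above 0 only in ILC2/b6, where it reads 0.149 and 0.158 RPKM with the control guide and 0.591 and 0.653 RPKM with the Bcl11b guide.

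**Figure D2:**
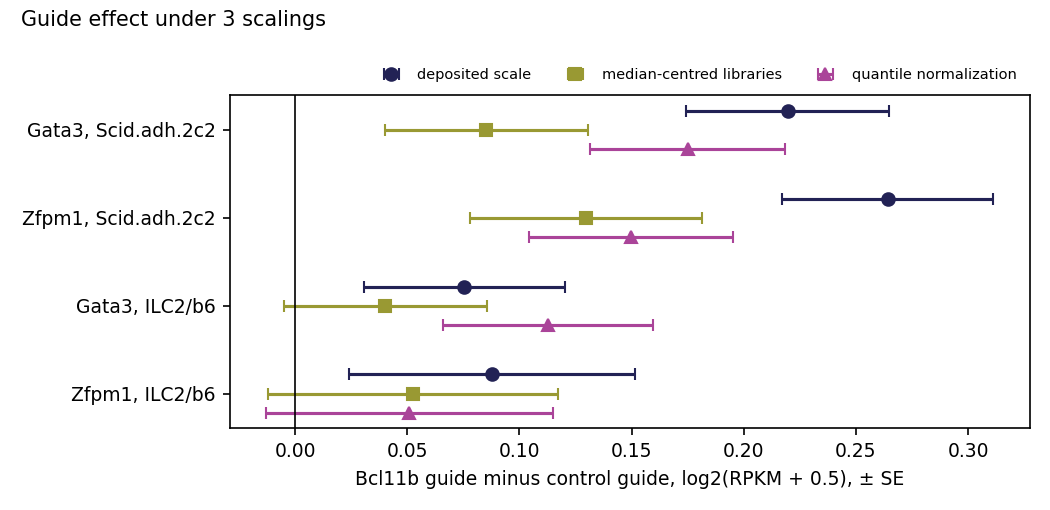
Difference between Bcl11b guide and control guide for Gata3 and Zfpm1 on the log2(RPKM + 0.5) scale, with SE, on the deposited scale and after median centring or quantile normalization. In Scid.adh.2c2 the values for Gata3 fall from 0.22 to 0.09 and those for Zfpm1 from 0.26 to 0.13 under median centring, and all 12 points lie above 0.

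Among the 4 genes, Gata2 had the largest relative change, at a low level. It was read 18 times in each ILC2/b6 control library and 74 times in each library with the Bcl11b guide. These counts correspond to 0.149 RPKM (95% Poisson interval 0.0882 to 0.235) and 0.158 RPKM (0.0938 to 0.25) with the control guide. With the Bcl11b guide they correspond to 0.591 RPKM (0.464 to 0.741) and 0.653 RPKM (0.513 to 0.82), and the intervals, which cover counting error only, do not overlap between the groups. The means were 0.154 ± 0.006 and 0.622 ± 0.044 RPKM (SD, n = 2), a ratio of 4.05. This level is below the filter of 1 RPKM in 2 libraries, so the planned fit did not test Gata2. With no filter the change was 0.78 ± 0.06 (SE, log2), limma adjusted p = 0.0131, beside 3.68% of 16707 genes called. With a filter of 0.1 RPKM, chosen after the data were seen, limma adjusted p was 0.00475, beside 10.7% of 12979 genes. The pseudocount of 0.5 RPKM makes this log2 change smaller than the ratio of means.

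In Scid.adh.2c2 Gata2 had 0 reads in all 4 libraries, which allows up to 3 reads or 0.021 to 0.027 RPKM in each. The difference between the lines in the guide effect was 0.78 (log2) with no filter, limma adjusted p = 0.000101, beside 30.5% of 18540 genes called; the Scid.adh.2c2 libraries, all at 0, add no spread to this test. In these bulk samples more cells with Gata2 RNA and more Gata2 RNA per cell cannot be told apart. Summed mast cell and basophil markers moved with Gata2 in ILC2/b6, from 428 and 517 RPKM with the control guide to 902 and 906 RPKM with the Bcl11b guide. Of 11 listed, 7 were tested and 5 were called higher, beside 8.32% of all genes. Mcpt8, a basophil protease gene named after its values were seen, made up most of the sum, with 391.159 and 477.695 RPKM against 794.931 and 789.154 RPKM. The markers of that list were unevenly present. Ms4a2, a chain of the IgE receptor, was at 0 in all 4 libraries, Fcer1a, the other listed chain of that receptor, read 0 to 0.028 RPKM, and Cpa3, mast cell carboxypeptidase, 0 to 0.056 RPKM. Kit, the stem cell factor receptor, read 18.505 to 20.026 RPKM, and Hdc, which makes histamine, 1.648 to 2.707 RPKM. What part other cells have in the Gata2 value was not tested.

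Gata1 was read in Scid.adh.2c2 at 0.616 and 0.791 RPKM with the control guide (51 and 52 reads) and at 0.634 and 0.787 RPKM with the Bcl11b guide (49 and 60 reads). The groups overlapped. With no filter its change was 0.01 (log2), limma adjusted p = 0.962, beside 34.7% of genes called. ILC2/b6 libraries held 0, 1, 2 and 1 reads of Gata1, at or under the 3 reads that a count of 0 allows, so no fold is given.

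The genes nearest in pattern over the 8 RNA libraries, among 11609 tested, were taken by distance between centred log2 values. For Gata3 they were Apobec3, Pigs, Pigt, Vmp1 and Sdcbp, at distances of 0.14 to 0.17 (log2). For Zfpm1 they were Map3k4, Chrm4, Apbb3, Trp53bp2 and Gm16576, at 0.16 to 0.18. Pearson's r was 0.996 to 0.998 over the 8 libraries, which come from 2 lines whose levels differ, so r mainly reflects that step.

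Genes known to act upstream of Gata3 in T cells or type 2 cells included several large decreases in Scid.adh.2c2. Of 11 tested there, 5 were called lower and 3 higher (3 and 7 higher and lower after median centring), with a median of -0.04 (log2) beside 0.05 over all genes. Of all genes tested in this line 57.8% were called, 35.1% as higher and 22.7% as lower, so a call in either direction says little about this list. Lef1, an HMG-box factor of early T cells, read 34.861 and 41.079 RPKM with the control guide and 8.273 and 8.2 RPKM with the Bcl11b guide, a change of -2.13 ± 0.08 (limma adjusted p = 8.07e-07). The Notch receptor genes Notch3 and Notch1 fell by 2.09 ± 0.11 (limma adjusted p = 5.68e-06) and 1.64 ± 0.08 (limma adjusted p = 2.98e-06). Myb fell by 1.58 ± 0.05 (limma adjusted p = 3.75e-07). In ILC2/b6, 3 of 9 tested were called lower and 0 higher, beside 6.21% and 8.32% of all genes. These were Notch1 at -0.20 ± 0.05 (limma adjusted p = 0.0291), Ets1 at -0.18 ± 0.04 (limma adjusted p = 0.0234) and Il4ra, the IL-4 receptor alpha chain, at -0.15 ± 0.04 (limma adjusted p = 0.0478). That count was 0 with no filter, with no mean-variance trend or without the first Bcl11b guide library, and 1 without the second Bcl11b guide library or the first control library.

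Type 2 and ILC2 genes linked to GATA3 include those of the type 2 cytokines. In Scid.adh.2c2, 5 of 7 tested were called higher and 1 lower, beside 35.1% and 22.7% of all genes, with a median of 1.45 (log2), which was 0.77 after quantile normalization. Summed NK markers moved with it, from 2.369 and 5.33 RPKM with the control guide to 42.491 and 44.561 RPKM with the Bcl11b guide. Of 5 listed, 3 were tested and 2 were called higher. They were, both named after their values were seen, Ncr1, an NK receptor gene, at 0.142 and 0.258 against 37.643 and 36.299 RPKM, and Prf1, which encodes perforin, at 0.089 and 0.014 against 2.725 and 2.498 RPKM. Most of the sum with the Bcl11b guide was Ncr1, so it does not stand for the list. The other tested gene, Gzmb, read 5.014 and 2.067 against 3.14 and 2.724 RPKM and was not called (limma adjusted p = 0.731). The part of the NK markers in the result was not tested. Il4 read 0.316 and 0.149 RPKM with the control guide and 3.637 and 4.163 RPKM with the Bcl11b guide, a change of 2.59 ± 0.14 (limma adjusted p = 5.16e-06). Il13 rose by 2.18 ± 0.29 (limma adjusted p = 0.000633), Rora, a nuclear receptor needed by ILC2, by 1.56 ± 0.06 (limma adjusted p = 1.08e-06), and Klrg1, an inhibitory receptor, by 1.45 ± 0.12 (limma adjusted p = 4.96e-05). The 1 gene called lower was Il17rb, from 28.157 and 30.706 RPKM to 10.63 and 10.459 RPKM, a change of -1.44 ± 0.06 (limma adjusted p = 1.19e-06). Il9r, an ILC2 marker outside this list, changed by -1.25 ± 0.07 (limma adjusted p = 9.79e-06). In ILC2/b6, 5 of 14 tested were called lower and 2 higher, with a median of -0.07 beside 0.02 over all genes, of which 6.21% were called lower and 8.32% higher, and with the spread estimated from all 8 libraries together 2 were called lower and 1 higher.

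In ILC2/b6, the cytokine genes of this list were abundant. Areg, the growth factor amphiregulin, fell from 476.307 and 469.91 RPKM to 242.966 and 254.19 RPKM, a change of -0.93 ± 0.04 (limma adjusted p = 2.08e-05). Il5 changed by -0.56 ± 0.05 (limma adjusted p = 0.000518) and Il13 by -0.52 ± 0.04 (limma adjusted p = 0.000487). In that joint fit neither passed (limma adjusted p = 0.0713 for Il5 and 0.245 for Il13). The costimulatory receptor gene Icos rose by 0.45 ± 0.06 (limma adjusted p = 0.00474), or limma adjusted p = 0.0541 with no filter. For Il13 the difference between the lines was -2.70 ± 0.38 (SE, log2), limma adjusted p = 0.000694.

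Mast cell and basophil genes linked to GATA2 were called higher in ILC2/b6 in 5 of 7 tested and lower in 0, beside 8.32% and 6.21% of all genes, with a median of 0.96 (log2) beside 0.02 over all genes. Cma1, the mast cell chymase, read 1.926 and 2.495 RPKM with the control guide and 24.051 and 24.344 RPKM with the Bcl11b guide, a change of 3.2 ± 0.09 (limma adjusted p = 9.33e-06). The tryptase genes Tpsb2 and Tpsab1 rose by 2.94 ± 0.05 (limma adjusted p = 8.49e-07) and 1.35 ± 0.07 (limma adjusted p = 7.8e-05). They are close copies, and how reads were split between them is uncertain. Mcpt4, another chymase, rose by 0.96 ± 0.12 (limma adjusted p = 0.00332). Kit read 20.026 and 19.763 RPKM with the control guide and 18.505 and 19.426 RPKM with the Bcl11b guide and was not called (limma adjusted p = 0.357). In Scid.adh.2c2 only Cpa3 could be tested, and it rose from 23.5 and 21.385 RPKM to 62.413 and 62.657 RPKM, by 1.46 ± 0.05 (limma adjusted p = 7.31e-07). The list shares 11 of its 12 genes with the mast cell and basophil marker list, so its values are not a second measurement.

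Erythroid and megakaryocyte genes linked to GATA1 were mostly too low to test. Of 21 in the tables, 3 passed the filter in each line, and the 2 called higher were the alpha globin copies Hba-a1 and Hba-a2, whose reads cannot be told apart. Of all genes tested, 35.1% were called higher in Scid.adh.2c2 and 8.32% in ILC2/b6. In Scid.adh.2c2 Hba-a1 read 0.289 and 0.52 RPKM with the control guide and 3.934 and 4.216 RPKM with the Bcl11b guide, a change of 2.35 ± 0.14 (limma adjusted p = 9.04e-06). In ILC2/b6 it rose by 0.74 ± 0.06 (limma adjusted p = 0.000363), from 16.897 and 15.196 RPKM to 27.166 and 26.914 RPKM. Klf1, an erythroid factor, read between 0.019 and 0.17 RPKM, and in Scid.adh.2c2 0.12 and 0.17 RPKM with the control guide against 0.064 and 0.065 RPKM. Epor, another gene of this list, read lower with the Bcl11b guide in both lines. Its values were 0.867 and 0.998 against 0.202 and 0.164 RPKM in Scid.adh.2c2, and 0.897 and 0.813 against 0.553 and 0.597 RPKM in ILC2/b6. Both genes were below the filter and were not tested.

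A list of partners of GATA factors in complexes with LMO2 and LDB1 had 10 genes tested in Scid.adh.2c2. Of these 3 were called higher and 4 lower, with a median of -0.07 (log2), and 57.8% of all genes there were called. The list also holds Spi1, which encodes PU.1, a factor known to oppose GATA1. Spi1 read 0 and 0.02 RPKM with the control guide and 3.315 and 2.711 RPKM with the Bcl11b guide. That change was 2.78 ± 0.12 (limma adjusted p = 1.94e-06). Cbfa2t3, an ETO family corepressor, changed by -1.32 ± 0.10 (limma adjusted p = 2.76e-05), the ETS factor Fli1 by 0.79 ± 0.06 (limma adjusted p = 2.6e-05) and the E protein gene Tcf12 by -0.50 ± 0.06 (limma adjusted p = 0.000338). Lmo2 and Tal1 had no reads in Scid.adh.2c2. In ILC2/b6, limma called 0 of 7 tested, with 3 at an unadjusted p under 0.05; after median centring, quantile normalization, with the replicate block or without the second control library 1 was called lower.

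The corepressor genes through which FOG1 can act, those of the NuRD complex and the CtBP genes, were tested for 15 of 16 in Scid.adh.2c2 and all 16 in ILC2/b6. In Scid.adh.2c2, 4 of 15 tested were called higher and 5 lower, with a median of -0.04 (log2). That is near the 57.8% of all genes called, so the count is no result about the corepressors. After median centring 1 was called higher and 9 lower. Without the first or the second Bcl11b guide library 1 or 2 were called higher. Chd3, a NuRD helicase gene, rose by 0.39 ± 0.04 in Scid.adh.2c2 (limma adjusted p = 0.000208) and fell by 0.44 ± 0.04 in ILC2/b6 (limma adjusted p = 0.00119). The difference between the lines was -0.84 ± 0.06 (SE, log2), limma adjusted p = 9.81e-06. The other named changes in Scid.adh.2c2 were Cdk2ap1 at -0.31 ± 0.04 (limma adjusted p = 0.000583), Mbd3 at -0.30 ± 0.05 (limma adjusted p = 0.00155) and Hdac2 at -0.25 ± 0.04 (limma adjusted p = 0.00181). In ILC2/b6 only Chd3 and Rbbp4 (0.18 ± 0.04, limma adjusted p = 0.0176) of 16 were called, and without either Bcl11b guide library Rbbp4 was not (limma adjusted p = 0.117 and 0.107). Of all genes tested in ILC2/b6 14.5% were called, so the count of Chd3 and Rbbp4 there is no result about the corepressors. Of the remaining GATA and FOG genes, Gata4, Gata5, Gata6 and Zfpm2, none passed the filter in either line, and Gata4 was highest at 0.143 RPKM.

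**Figure D3:**
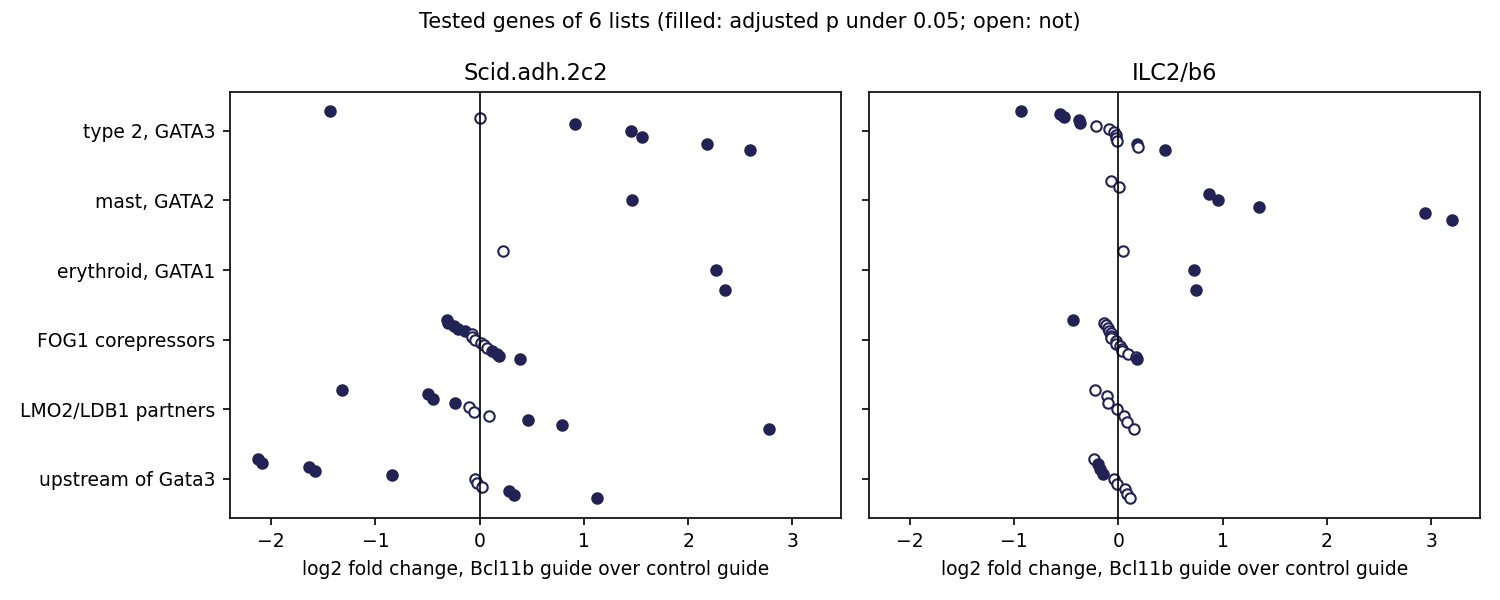
Fitted log2 fold change of each tested gene in 6 gene lists, Scid.adh.2c2 at left and ILC2/b6 at right (filled points: limma adjusted p under 0.05; open points: not called). In ILC2/b6 the list linked to GATA2 holds the highest value drawn for that line, 3.2 for Cma1, while the list linked to GATA3 reaches down to -0.93 for Areg.

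The peak lists were read next. Per the file headers each list combines both replicates, so peaks have no replicate check, and the peak scores are the authors' own and are compared only within a list. By gene name, Gata3 had 48 peaks, Zfpm1 52, Gata1 3 and Gata2 2. The annotation of the lists was not uniform. In the 6 Bcl11b and Runx lists 7.37% to 8.31% of peaks carry a transcript accession with no gene name, against 0.0% in the 2 GATA3 lists, and the unnamed accessions include transcripts of Gata3 and Gata2. Adding peaks by accession, a step chosen after the data were seen, gave 79 more for Gata3, 2 more for Gata2 and 186 in all. By name alone, 46 of the 48 Gata3 peaks came from the GATA3 lists. With accessions, Gata3 had 11 Bcl11b, 24 GATA3, 11 Runx1 and 11 Runx3 peaks in Scid.adh.2c2 and 11, 22, 11 and 26 in ILC2/b6. The sites below use both kinds of match, and overlapping peaks of different lists are counted as 1 site.

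The 186 peaks fell into 80 sites, of which 56 were assigned to Gata3, 21 to Zfpm1, 2 to Gata2 and 1 to Gata1. Of these sites 24 had peaks in both lines, 22 in Scid.adh.2c2 only and 34 in ILC2/b6 only. Assignment is to the nearest annotated start and does not show which gene a site acts on. The sites described in what follows beyond the best peak of each list and the peaks near a start were singled out after their values were seen.

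Gata3 lies on the minus strand of chromosome 2, chr2:9778705-9800227 in mm9, and its sites reached far past the gene. Distances are given from its start, positive in the direction of transcription, and peaks were assigned as far as 336.0 kb. On the side before it lie the starts of 4930412O13Rik and 9230102O04Rik, 2646 and 10940 bp away. Within 50 kb of Gata3, 4 of 10 GATA3 peaks in Scid.adh.2c2 and 4 of 11 in ILC2/b6 were named for these genes. Some Bcl11b and Runx peaks were as well, so the sites assigned to Gata3 do not show all binding before its start. At 284.4 kb an intergenic site had peaks in 7 of the 8 lists, all but GATA3 in Scid.adh.2c2. It held the best Gata3 peak of 5 of those lists. In Scid.adh.2c2 these were Runx3 (chr2:9515678-9515934, score 221.3, rank 210 of 20523), Runx1 (score 124.9, rank 211 of 13664) and Bcl11b (score 93.3, rank 566 of 17874). In ILC2/b6 they were Runx3 (score 401.7, rank 283 of 44938) and Runx1 (score 168.1, rank 696 of 26258). GATA3 was weak there in ILC2/b6, with a score of 15.5 and rank 31786 of 33709.

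The best GATA3 peaks lay elsewhere and differed by line. In Scid.adh.2c2 the best was the intergenic peak at 313.9 kb, chr2:9486154-9486470, with a score of 374.5 and rank 116 of 36973. The same site had Bcl11b, Runx1 and Runx3 peaks in Scid.adh.2c2, and in ILC2/b6 only a GATA3 peak, with a score of 36.2 and rank 10338. In ILC2/b6 the best GATA3 peak was inside the gene, in intron 5, chr2:9781921-9782209, with a score of 135.0 and rank 906 of 33709. That site had all 4 factors in ILC2/b6 and only GATA3 in Scid.adh.2c2 (score 35.3, rank 10781).

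Of the 80 sites, 1 had a peak in all 8 lists, the Gata3 site at 130.0 kb, where Bcl11b in Scid.adh.2c2 had rank 3743 of 17874. A nearby site, at 128.3 kb, had all 4 factors in ILC2/b6 and none in Scid.adh.2c2, with Runx3 at rank 1947 (score 214.0). The site at 145.2 kb was also held by all 4 ILC2/b6 lists and by none from Scid.adh.2c2.

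At the Gata3 promoter, peaks of 7 lists, all but Runx1 in ILC2/b6, joined into 1 site at -1.0 kb, minus meaning before the start. The GATA3 peaks were centred at -814 bp (Scid.adh.2c2) and -829 bp (ILC2/b6), and the Bcl11b peaks at -1140 and -1151 bp. Within a line these GATA3 and Bcl11b intervals did not touch. The ILC2/b6 Bcl11b peak, chr2:9801251-9801505, was the best Bcl11b peak of Gata3 in that line, with a score of 79.4 and rank 1379 of 21677. Nearer to the start, Scid.adh.2c2 alone had a Bcl11b peak centred at -311 bp (score 39.2) and a Runx1 peak at the start (score 15.4, rank 13199 of 13664).

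**Figure D4:**
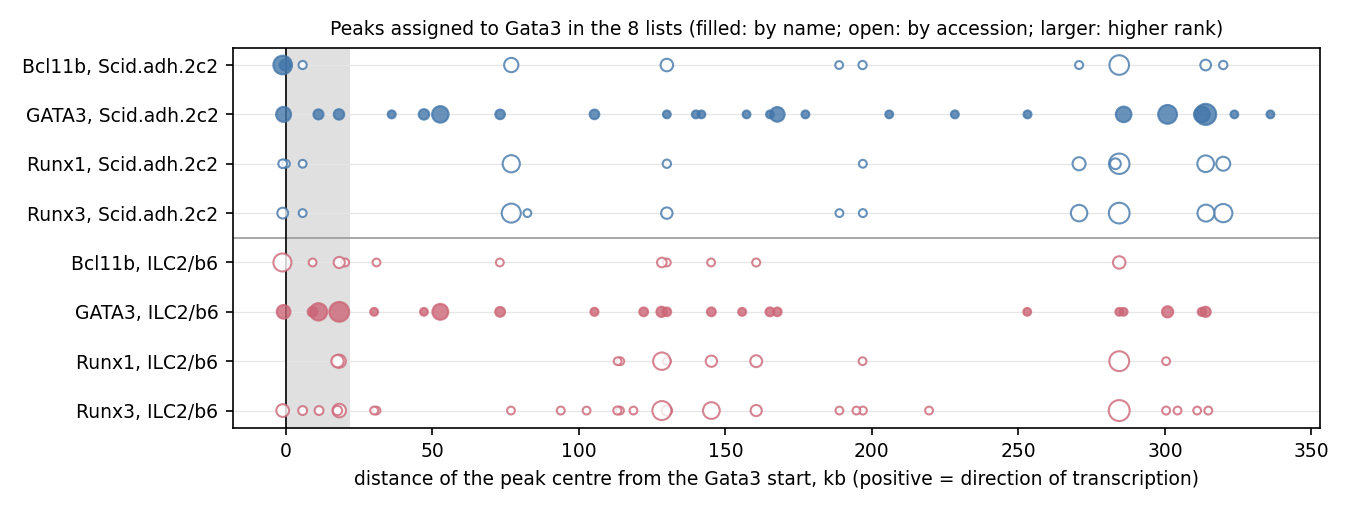
Peaks assigned to Gata3 in each list by distance of the peak centre from the start (grey: the gene; filled: assigned by name; open: by accession; larger: higher rank in the list). The Runx and Bcl11b rows are mostly open circles, and the large circles at 284.4 kb stand in the Runx1 and Runx3 rows of both lines, while the largest GATA3 circle is at 313.9 kb in Scid.adh.2c2 and inside the gene in ILC2/b6.

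Overlaps of at least 1 bp were counted between the lists, beside the share over each whole list. In Scid.adh.2c2, Runx3 peaks overlapped 10 of 11 Bcl11b peaks at Gata3 (whole list 73.5%), and Bcl11b peaks overlapped 10 of 11 Runx3 peaks (64.0%). GATA3 peaks overlapped 2 of 11 Bcl11b peaks (19.3%), and Bcl11b peaks 2 of 24 GATA3 peaks (9.35%). In ILC2/b6, Runx3 overlapped 8 of 11 Bcl11b peaks (85.0%) and Bcl11b 8 of 26 Runx3 peaks (41.0%), while GATA3 overlapped 7 of 11 Bcl11b peaks (35.0%) and Bcl11b 7 of 22 GATA3 peaks (22.5%). Between the lines, 15 of 24 Scid.adh.2c2 and 15 of 22 ILC2/b6 GATA3 peaks at Gata3 met one another (47.3% and 51.8%), and 3 of 11 Bcl11b peaks of each line did (43.1% and 35.6%). With so few peaks these counts are descriptions.

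Zfpm1, on the plus strand at chr8:124806041-124861762 in mm9, held some of the best GATA3 peaks of either line. In intron 1, at 2.4 kb, the Scid.adh.2c2 GATA3 peak chr8:124808322-124808638 scored 520.4, rank 39 of 36973. The ILC2/b6 peak there scored 362.8, rank 35 of 33709. This site also had Bcl11b peaks in both lines (scores 66.3 and 64.6) and Runx1 and Runx3 peaks in ILC2/b6 only, 6 lists in all. A GATA3 peak at 0.7 kb ranked 303 in Scid.adh.2c2 (score 259.8) and 122 in ILC2/b6 (score 267.4), and Bcl11b, Runx1 and Runx3 joined it in ILC2/b6 only.

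The lines differed at the remaining Zfpm1 sites. In Scid.adh.2c2 all 4 factors had peaks in intron 3 at 37.5 kb, with Runx3 at rank 1319 (score 104.4) and GATA3 at rank 2996 (score 79.8), and no list of ILC2/b6 had one. Runx1 and Runx3 peaks centred at -142 and -143 bp were in Scid.adh.2c2 only. In ILC2/b6 all 4 factors had peaks at -102.6 kb, at -70.1 kb and in intron 3 at 32.9 kb, and no Scid.adh.2c2 list did. The peak at -102.6 kb was the best Zfpm1 peak for Bcl11b (score 79.7, rank 1364 of 21677) and for Runx1 (score 100.3, rank 2251 of 26258) in ILC2/b6. In all, 3 of the 21 Zfpm1 sites had peaks in both lines, 7 in Scid.adh.2c2 only and 11 in ILC2/b6 only. A further 4 peaks inside the gene, in its 3′ part, are named for Trhr2 and are not counted.

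At Zfpm1, Runx3 peaks overlapped all 7 ILC2/b6 Bcl11b peaks (85.0% of the whole list) and Bcl11b peaks 7 of 14 Runx3 peaks (41.0%). GATA3 overlapped 5 of these 7 Bcl11b peaks (35.0%), and Bcl11b all 5 GATA3 peaks (22.5%). In Scid.adh.2c2, Runx3 overlapped 2 of 6 Bcl11b peaks (73.5%) and Bcl11b 2 of 4 Runx3 peaks (64.0%), while GATA3 overlapped 2 of 6 Bcl11b peaks (19.3%) and Bcl11b 2 of 4 GATA3 peaks (9.35%).

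**Figure D5:**
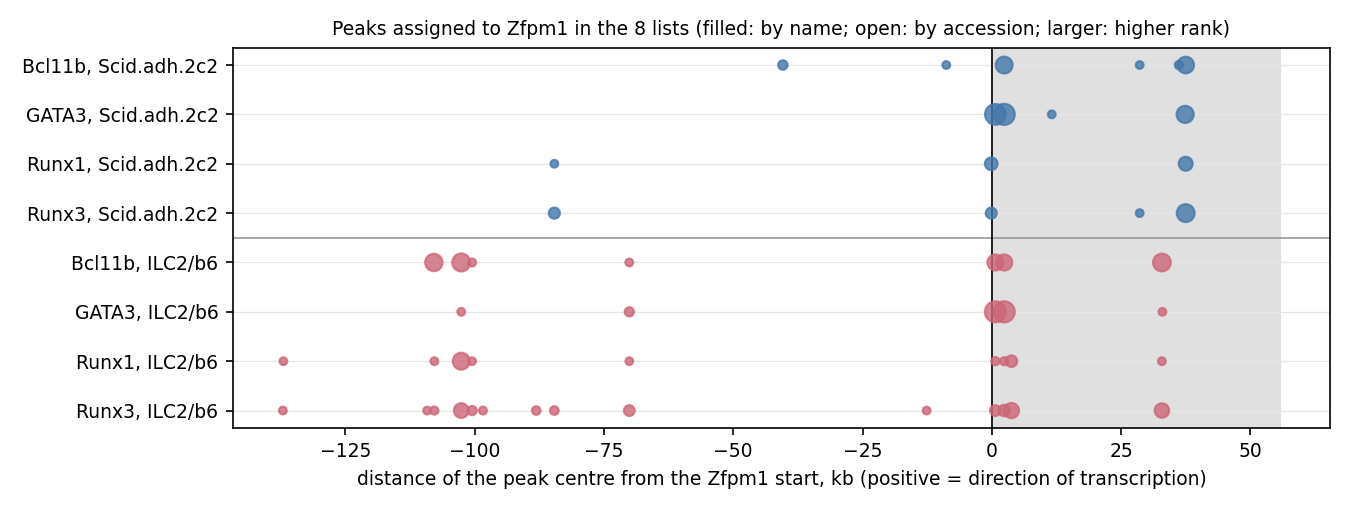
Peaks named for Zfpm1 in each list by distance of the peak centre from the start (grey: the gene; larger: higher rank in the list). The GATA3 rows of both lines hold large circles at 0.7 and 2.4 kb, the Scid.adh.2c2 rows share a site at 37.5 kb, and the ILC2/b6 rows share sites at -102.6, -70.1 and 32.9 kb.

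Gata2 (chr6:88148658-88157026, plus strand, mm9) had peaks assigned to it in ILC2/b6 only. A site at -8.8 kb had GATA3 (chr6:88139689-88139977, score 69.6, rank 3642 of 33709), Runx1 (score 25.6, rank 16339 of 26258) and Runx3 (score 31.5, rank 29005 of 44938). A second GATA3 peak lay 4.5 kb past the start, in the gene. Gata1 (chrX:7536386-7545036, minus strand, mm9) had 1 site, in intron 1 at 3.7 kb, with GATA3 peaks in both lines (score 31.1, rank 13007 of 36973 in Scid.adh.2c2, and score 23.3, rank 19162 of 33709 in ILC2/b6) and a Runx3 peak in ILC2/b6. No Bcl11b peak was assigned to Gata1 or Gata2 in either line. Within 50 kb of Gata1, however, a Bcl11b, a Runx1 and a Runx3 peak of Scid.adh.2c2 were named for Hdac6. A Runx3 peak of ILC2/b6 there also had that name. Within 50 kb of Gata2, a GATA3 peak of Scid.adh.2c2 was named for Dnajb8.

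The genes within 300 kb of each member were counted to see whether a member moved with its neighbourhood. Around Gata3, 2 of 4 tested genes were called higher and 2 lower in Scid.adh.2c2, and 1 of 5 higher and 0 lower in ILC2/b6. These counts, and those around the other members, stand beside 57.8% of all genes called in Scid.adh.2c2 and 14.5% in ILC2/b6, and with so few genes nothing particular to a neighbourhood is read from them. The noncoding gene 9230102O04Rik, whose start is 10940 bp from that of Gata3, rose in both lines, by 0.37 ± 0.10 (limma adjusted p = 0.0143) and 0.29 ± 0.06 (limma adjusted p = 0.0192). Its Scid.adh.2c2 values were 2.87 and 2.515 RPKM in the controls and 3.441 and 3.831 RPKM with the Bcl11b guide, and 7.079 and 7.45 RPKM against 8.699 and 9.236 RPKM in ILC2/b6. Both calls were lost with no filter (limma adjusted p = 0.0636 and 0.075) and without the second Bcl11b guide library of the line (limma adjusted p = 0.142 and 0.111). The Scid.adh.2c2 call was also lost after median centring (limma adjusted p = 0.0768) and the ILC2/b6 call without the first control library (limma adjusted p = 0.0558). It overlaps 4930412O13Rik on the other strand, and the library kit is not known to mark strand, so their reads cannot be told apart.

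Kin, a DNA repair gene, rose by 0.29 ± 0.06 in Scid.adh.2c2 (limma adjusted p = 0.00364), while Taf3, which encodes a TFIID subunit, and Atp5c1, which encodes an ATP synthase subunit, fell by 0.21 ± 0.06 (limma adjusted p = 0.0196) and by 0.17 ± 0.04 (limma adjusted p = 0.00635). Without the first Bcl11b guide library all 3 missed the threshold (limma adjusted p = 0.0741 for Kin, 0.179 for Taf3 and 0.0994 for Atp5c1). Without the second, Taf3 and Atp5c1 did (limma adjusted p = 0.156 and 0.0765). Around Zfpm1, 4 of 14 tested genes were called higher and 5 lower in Scid.adh.2c2, and 1 each of 12 in ILC2/b6. Around Gata2 the Scid.adh.2c2 counts were 5 higher and 2 lower of 7, and in ILC2/b6, where Gata2 itself was higher, limma called 0 of 7, with 1 at an unadjusted p under 0.05. Around Gata1 they were 10 higher and 3 lower of 20, and limma called 0 of 21 in ILC2/b6, with 4 at an unadjusted p under 0.05.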

How the data were processed

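Of 32 samples in 16 groups, the 8 RNA libraries and the 8 peak lists were used. The authors deposited RPKM values per gene, 1 table per line, and 8 peak lists with a score for each peak. Per the submitters' processing notes edgeR 3.6.8, RSEM 1.2.25, STAR 2.4.0, Bowtie 1.1.1, Trimmomatic and HOMER were used and NCBIM37 and mm9 are named as builds; which tool did what is not given there. Per the labels, reads were single and 50 nt long. Dividing low RPKM values by the worth of 1 read gave each library's depth, 34.7 to 43.7 M reads (100.0% of the 1775 to 2194 low values tested per library were whole reads within 0.1 read).

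Values were tested as log2(RPKM + 0.5) with limma 3.58.1 (R 4.3.3), mean-variance trend, Benjamini-Hochberg adjustment over the genes that reached 1 RPKM in 2 or more libraries, called at 0.05, each line alone; the difference between lines was fitted on all 8 libraries. Fits were tested on simulated data. An exact permutation of 2 against 2 libraries cannot go below p = 0.333, so none is given. Peaks overlap at 1 bp. The members and gene lists were chosen with earlier results of these data known. Up to 4 called genes of each list were named by size of change, with the 5 genes nearest to a member in pattern and the tested neighbours of Gata3; neighbours of the other members are given as counts. Other genes with values (Kit, Klf1, Mcpt8, Lmo2, Tal1 and the cell type markers) were picked after their values were seen. Motifs in peaks were not searched, since no mm9 genome was used here. Alternatives were other pseudocounts, filters, scalings, no trend, a joint fit, a replicate block, each library left out and other peak rules.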

Additional observations from a re-analysis of the deposited data

Results flagged for a closer look

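The difference between the lines in the effect of the Bcl11b guide was looked at for the members and for genes named by the rules for lists, patterns and Gata3 neighbours. Other genes with values above are not included. Of all genes 45.1% passed the test of this difference, so passing it is common. With all libraries and the filter on low values it passed for neither Gata3 nor Zfpm1. Zfpm1 passed without the second ILC2/b6 control library (-0.24, limma adjusted p = 0.0452), and Gata2, which is below the filter, passed when low values were kept, at 0.78 (log2, ILC2/b6 minus Scid.adh.2c2). Of the 44 genes named by those rules beside the members, 30 passed, 14 with the higher effect in ILC2/b6 and 16 with the lower. Many of them were named for a called change in 1 line, which favours a difference between lines, so that count is a description and is not set against the share of all genes. The values that follow are differences of log2 changes, ILC2/b6 minus Scid.adh.2c2, with limma adjusted p under 0.05 except where a p is given.

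Genes linked to GATA2 stood higher in ILC2/b6, with 3.01 for Cma1, 2.94 for Tpsb2, 1.35 for Tpsab1 and 0.96 for Mcpt4, except Cpa3 at -1.51. Tpsb2, Tpsab1 and Mcpt4 were at 0 in all 4 Scid.adh.2c2 libraries, and Cma1 at 0 to 0.09 RPKM, so these differences mostly restate the ILC2/b6 changes, and libraries at 0 add no spread to the test. By the naming rules 7 genes were taken from those linked to GATA3, and 5 passed with the lower effect in ILC2/b6. They gave -2.96 for Il4, -2.70 for Il13, -1.77 for Rora, -1.27 for Klrg1 and -0.93 for Areg. Il5 (-0.57, limma adjusted p = 0.0889) and Icos (0.13, limma adjusted p = 0.516) did not pass. Hba-a1 and Hba-a2 stood at -1.61 and -1.55. Among genes upstream of Gata3 the values were 2.11 for Notch3, 2.10 for Lef1, 1.57 for Myb, 1.44 for Notch1 and -0.51 for Ets1. In the list of LMO2 and LDB1 partners they were 1.32 for Cbfa2t3, 0.29 for Tcf12 and -0.73 for Fli1. Spi1, on that list though known to oppose GATA1, gave -2.78. Among corepressors they were 0.25 for Rbbp4, 0.20 for Cdk2ap1, 0.18 for Hdac2 and -0.84 for Chd3. Neighbours of Gata3 gave 0.23 for Taf3 and -0.41 for Kin. Of the genes like a member in pattern, Vmp1 gave -0.34, Trp53bp2 -0.20 and Sdcbp -0.18.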

How the results depend on the processing

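Counts of called genes moved with the libraries kept. Leaving out 1 library gave 3760 to 6878 calls in Scid.adh.2c2 (5908 with all), the fewest without the second Bcl11b guide library (3760) or the first (3818). In ILC2/b6 it gave 807 to 2099 (1530 with all), the fewest without the second Bcl11b guide library (807) or the first (923). For the difference between lines it gave 4038 to 5293 (5231 with all). A lone library was assumed to vary like the other groups. With no filter ILC2/b6 had 615 calls. Median centring moved the median Scid.adh.2c2 change from 0.05 to -0.08 and the share of calls that were higher from 60.7% to 38.5%, in ILC2/b6 from 57.3% to 41.7%, and for the difference from 39.9% to 59%. Quantile normalization gave 38.4%, 50.8% and 58%. Median centring, which lowers every Scid.adh.2c2 change by 0.13, reversed Mta2 (-0.12), Hdac1 (-0.0138) and Rab7 (-0.0173). Changes reversed under quantile normalization for Rbm3 (0.0127) and, between lines, Pigs (0.14), and the cause of those was not tested. With the replicate number as a block the counts were 5921, 2258 and 4875. Deviations from the group mean of each gene were compared between the first control and the first Bcl11b guide library. They correlated at 0.04 in Scid.adh.2c2 (10221 genes) and 0.11 in ILC2/b6 (10526 genes). With 2 libraries per group the second libraries mirror the first and add nothing. These values do not show whether the numbers pair the libraries. Of 4743 alternative values of single genes, 4360 kept direction and call, 257 lost and 121 gained a call, and 5 reversed. Peaks by gene name were 105, with 64 at or above the median score, 48 within 50 kb and 186 with accessions. Those overlapped by another list were 58, with 56 at an overlap of 50%, 60 by centres within 500 bp, 34 at or above the median score and 124 with accessions. The search of motifs in peaks was not run. Depth limits Gata1 and Gata2, and peak lists without replicates allow no test.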
